A study of Mus musculus with 12 samples.

Results

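The replication-dependent histone genes were described from reduced representation bisulfite sequencing (RRBS) of mouse brain. RRBS cuts genomic DNA at CCGG with the enzyme MspI, and bisulfite turns unmethylated cytosines, but not methylated ones, into bases read as T. The measured unit was a row, which is the cytosine of a CpG on 1 strand with its reads counted as C or T, and the methylation level of a row is the percentage read as C. Members were the rows within the body of a protein-coding gene named Hist1h, Hist2h, Hist3h or Hist4h, or within 1 kb either side of it, with at least 10 reads in at least 6 of the 12 libraries. This rule used position and depth only, and it gave 1198 of the 2156659 such rows on the autosomes and chromosome X. Of the 67 genes, 46 held member rows. Every one of the 1198 rows lay at a CpG cytosine of the mm10 reference.

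The libraries came from 12 mice, 1 library per animal, of 4 wild-type (Wt) and 8 Tg2576 (Tg) animals, all labelled as 11 months old. The paper's methods give a wider age range that begins at 11 months, and its sample list gives about 11 months. Tg2576 mice carry a transgene, driven by a prion promoter, for the Swedish mutant form of human APP, the precursor of amyloid. Each sample pooled hippocampus with cortex, so that all cell types of these regions were measured together. By label the Wt group held 3 females and 1 male, and the Tg group 4 of each sex. The library labelled Wt male had a mean level of 19.9% on chromosome X, near the 20.7% to 23.0% of the libraries labelled female and far from the 5.50% to 5.67% of the Tg males, and so it went against its label. It is called the library labelled Wt male throughout, and calls that rest on it are given without it as well. All member genes are autosomal.

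Coverage summed over all CpG rows, in which a read counts at each CpG that it covers, ranged from 33619981 to 131446104 per library, and a library held between 593 (Wt female 2) and 1171 (Wt female 3) of the member rows at a median coverage of 20 to 51 reads. DNA holds no expression, so cell types could be looked at only through promoters. Within 1 kb of the start, the neuronal genes Snap25 and Syt1 were at 1.63% and 1.35%, the astrocyte gene Slc1a2 at 1.03% and the oligodendrocyte gene Mbp at 2.77%, but other markers were higher, with the neuronal Camk2a at 10.8%, the astrocyte Aldh1l1 at 46.9%, the oligodendrocyte Mog and Mag at 35.5% and 44.1%, the microglial P2ry12 at 21.3% and the endothelial Cldn5 at 3.71%. The germ cell genes Ddx4, Sycp3 and Dazl were at 68.9%, 62.7% and 19.8%. The remaining markers reported had no row near the start. Autosomal rows within 1 kb of any protein-coding start averaged 1.96%, so a low marker start does not point to a tissue. The labelled tissue was therefore not checked by these levels. Mitochondrial CpGs, which are commonly taken to be unmethylated, read 0.988% to 1.18% C, so a nuclear level near 1% cannot be told apart from incomplete conversion or reading error.

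Histones are the proteins around which DNA is wound. H2A, H2B, H3 and H4 form the core of the nucleosome and H1, the linker histone, binds the DNA between cores. The replication-dependent genes are short, mostly have no intron, lie in clusters, and are transcribed in S phase, when a dividing cell must package its new DNA. Their messages end in a stem-loop in place of a poly(A) tail. A few members of the clusters are instead known for expression in the germline. These are Hist1h2ba, which encodes the testis H2B (TH2B), its neighbour Hist1h2aa, which encodes the testis H2A (TH2A), and Hist1h1t, which encodes the testis linker histone H1t. Most brain cells are neurons and glia that have left the cell cycle.

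The coding sequence of Hist1h2ba is closely matched by those of somatic H2B genes, and both were covered. The first set of sequences, whose partners of Hist1h2ba were chosen after their values were seen, is shown because largely the same CpGs stood at opposite levels. Each runs 5′ to 3′ on the coding strand, is taken from the RefSeq copy of the mm10 (GRCm38) genome, and has its CpGs in capitals. Hist1h2ba is given at chr13:23933876-23933959 (minus strand, coding bases 198 to 281), Hist1h2bj at chr13:22043424-22043507 (plus strand), Hist1h2bf at chr13:23573913-23573996 (minus strand) and Hist3h2ba at chr11:58949134-58949217 (plus strand), the last 3 at coding bases 195 to 278.
Hist1h2ba: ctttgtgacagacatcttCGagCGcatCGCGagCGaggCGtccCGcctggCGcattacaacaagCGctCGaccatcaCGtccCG
Hist1h2bj: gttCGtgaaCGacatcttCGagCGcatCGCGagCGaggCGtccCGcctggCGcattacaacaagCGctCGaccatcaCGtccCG
Hist1h2bf: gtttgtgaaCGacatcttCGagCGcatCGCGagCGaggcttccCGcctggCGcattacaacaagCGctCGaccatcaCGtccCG
Hist3h2ba: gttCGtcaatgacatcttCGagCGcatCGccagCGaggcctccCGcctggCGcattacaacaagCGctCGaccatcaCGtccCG
Over these 84 bases Hist1h2ba and Hist1h2bj differ at 4 bases, with 74 identical bases in a row. The mean level over the libraries was 92.6% in Hist1h2ba (22 rows, range over libraries 81.9% to 100%), 0.695% in Hist1h2bj (15 rows, 0% to 4.24%), 3.33% in Hist1h2bf (13 rows, 0.481% to 12.3%) and 0.802% in Hist3h2ba (23 rows, 0.245% to 1.97%). Levels of near-identical stretches remain uncertain in that a read is assigned to 1 copy by few bases, and reads given to the wrong copy were not tested for.

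The same was seen for H2A. Hist1h2aa at chr13:23934558-23934676 and Hist3h2a at chr11:58954834-58954952 (both plus strand, coding bases 97 to 215) are shown because both were covered at the same coding bases. The second was likewise chosen after its values were seen.
Hist1h2aa: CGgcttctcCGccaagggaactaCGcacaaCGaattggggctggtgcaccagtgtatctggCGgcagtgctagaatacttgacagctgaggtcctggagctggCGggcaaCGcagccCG
Hist3h2a: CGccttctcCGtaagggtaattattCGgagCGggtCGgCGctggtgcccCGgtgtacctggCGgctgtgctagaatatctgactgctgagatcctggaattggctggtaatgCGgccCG
Here the sequences differ at 29 of 119 bases. The level was 91.4% in Hist1h2aa (14 rows, range 74.7% to 99.1%) and 0.646% in Hist3h2a (16 rows, 0% to 3.31%).

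Hist1h2ba (ENSMUSG00000050799.3, minus strand of chromosome 13, 23933773 to 23934156) and Hist1h2aa (ENSMUSG00000060081.1, plus strand, 23934462 to 23934851) stand head to head at the end of the Hist1 cluster. The 305 bp between them hold 8 CpGs, none of which had a member row, so the sequence between the starts was not measured. The nearest rows to a start lay 4 bp inside Hist1h2ba and 96 bp inside Hist1h2aa. All 51 rows of the pair lay in coding sequence, 37 in Hist1h2ba from 23933876 to 23934152 and 14 in Hist1h2aa from 23934558 to 23934676. Because the windows of the genes overlap, all 51 rows count for both.

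Over the 51 rows the level was 92.4% ± 4.63 (SD, n = 12), and all 51 rows averaged over 50%. The rows of the other member genes, 1147 in number, had a level of 2.55% ± 0.304 (SD, n = 12). The germline pair was higher in 12 of 12 libraries, by 89.9 points on average. Without the library labelled Wt male the difference was 89.7 points.

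In the Hist1h2ba stretch the level was 95.3%, 81.9% and 91.7% in Wt females 1 to 3 and 94.7% in the library labelled Wt male. The 8 Tg libraries ran from 88.4% over a median of 95.1% to 100%. Every library was thus highly methylated here, and the ranges of the genotypes overlapped. In the Hist1h2aa stretch Wt female 2 had no row, Wt females 1 and 3 were at 94.6% and 99.1%, and the library labelled Wt male at 93.4%. The Tg libraries ran from 74.7% over a median of 91.9% to 97.1%, and the ranges again overlapped. Depth was modest, at a median coverage of 18 and 24 reads, and from 12 to 50 of the 51 rows were covered per library.

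All rows of the pair were highly methylated on average, and they varied in degree. Single rows of Hist1h2ba averaged 68.4% to 100% and those of Hist1h2aa 80.1% to 99.4%. The lowest, 68.4%, was a minus-strand row of Hist1h2ba at 23933932 with values from 0% to 100% over 7 libraries, while the plus-strand row of the same CpG averaged 83.0% over 11.

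Each covered CpG of the germline coding sequences was then set beside the CpG at the same place in other genes, after shifting the sequences by whole bases to their best match. For Hist1h2ba, 10 other H2B genes had covered coding rows, and their coding sequences matched it at 81.0% to 87.8% of bases. In 9 of them at least 1 covered CpG lined up, which gave 100 pairs. Across these pairs the CpG of Hist1h2ba was at 79.3% to 98.9% and that of the other gene at 0% to 4.80%. For Hist1h2aa, 7 pairs in 2 genes (Hist1h2ac and Hist3h2a) had 81.0% to 97.1% against 0% to 0.884%. The levels of the pairs therefore did not overlap, which describes the genes, since pairs within 1 gene and 1 library are not independent.

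**Figure D1:**
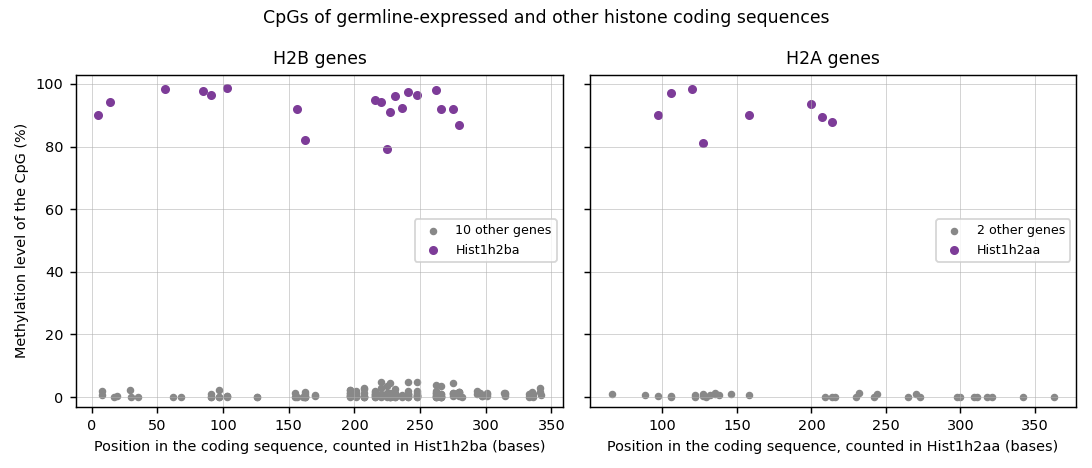
Methylation level (%, mean over libraries) of each covered coding CpG against its position in the coding sequence in bases, for H2B genes (left) and H2A genes (right). The purple points of Hist1h2ba and Hist1h2aa lie above 79%, and the grey points of the 10 and 2 other genes lie under 5%.

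Hist1h1t (ENSMUSG00000036211.4, plus strand of chromosome 13, 23695814 to 23696725), the third gene known for germline expression, had no row in any library. Its body has 26 CpGs, at 0.426 of the number that its C and G content would give by chance, against a median of 0.895 over the 67 genes and 0.857 in Hist1h2ba. No MspI fragment of 40 to 220 bp with a CpG fell in its window, a length range chosen here. Hist4h4 had no such fragment either, yet held 62 member rows. Hist1h4h had none as well, and held 36 rows, all in fewer than 6 libraries. Why Hist1h1t had no row was not tested.

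Most other members were unmethylated. Of the 1198 rows, 1109 averaged under 5%, 14 lay from 5% to 50%, and 75 averaged over 50%. The median row was at 0.649%. Among the 46 genes, all of which had at least 3 rows, the median gene level was 0.777%. In all, 41 genes were under 5%, 1 gene (Hist1h2bk, from 4 downstream rows only) was between 5% and 10%, and 4 genes were at 10% or more. A total of 33 genes had a level below the highest mitochondrial value, so differences among them were not interpretable.

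**Figure D2:**
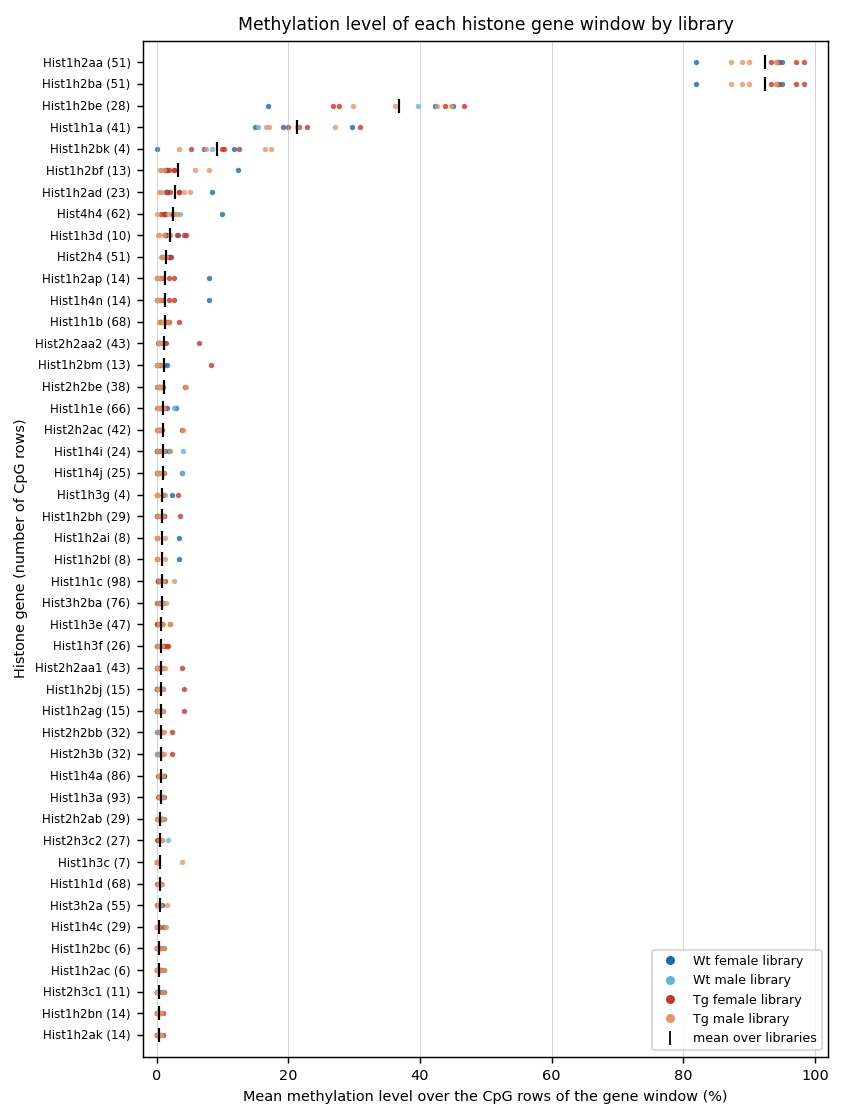
Mean methylation level (%) over the CpG rows of each of the 46 histone gene windows, 1 point per library coloured by labelled group, with the mean over libraries as a black bar and the number of rows in parentheses. Hist1h2aa and Hist1h2ba, which share their rows, stand at 92.4%, Hist1h2be at 36.9%, Hist1h1a at 21.4%, and 41 genes lie under 5%.

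By histone class and without the germline pair, the level was 3.04% over 341 rows of H1 genes, 0.997% over 277 rows of H2A genes, 4.78% over 276 rows of H2B genes, 0.703% over 257 rows of H3 genes and 1.11% over 291 rows of H4 genes. Some rows count for neighbouring genes of different classes. The higher values of H1 and H2B came with 1 gene each, Hist1h1a and Hist1h2be, which are described below. By cluster, the 225 rows of Hist2 on chromosome 3 were at 1.01%, the 131 rows of Hist3 on chromosome 11 at 0.651% and the 62 rows of Hist4h4 on chromosome 6 at 2.55%.

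The lowest levels among genes with at least 10 rows were those of Hist1h2bn (H2B) and Hist1h2ak (H2A), which share 14 rows at 0.307% with a range over libraries of 0% to 1.02%, and of Hist2h3c1 (H3) with 11 rows at 0.309% (0% to 1.14%). The differences among these low genes were smaller than the spread between libraries. The genes with the most rows were Hist1h1c (98 rows, 0.768%) and Hist1h3a (93 rows, 0.610%).

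Level differed by the place of a row, but the intron and downstream values rest on few genes. Place cannot be told apart from gene there. Without the germline pair, coding rows were at 0.865% (695 rows), rows in untranslated exon sequence at 1.14% (122 rows) and rows in the upstream flank at 0.919% (300 rows). The 14 intron rows, all in Hist1h2be, were at 90.4%, and the 16 downstream rows, in Hist1h1a, Hist1h2bk and Hist4h4, at 50.4%.

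Hist1h2be (ENSMUSG00000047246.7) encodes a canonical H2B, and its annotated gene on the minus strand of chromosome 13, 23583670 to 23621124, is long because of a transcript that begins far upstream of the coding exon. Its 14 coding rows, from 23585694 to 23585798, were at 0.527%, with no library above 1.97%. Its 14 intron rows fell in a stretch at 23591386 to 23591513 (6 rows, 87.6%) and another at 23592297 to 23592410 (8 rows, 92.8%). In the first the Wt libraries ran from 83.2% to 93.9% and the Tg libraries from 81.8% to 100%, and in the second from 87.8% to 93.3% and from 81.8% to 100%. The 36.9% of the whole gene thus averaged both kinds of row. The first intron stretch is shown, on the coding strand, because it has few CpGs where the coding stretches have many, with 4 in 128 bases against 12 in 84 bases of Hist1h2ba.
Hist1h2be intron: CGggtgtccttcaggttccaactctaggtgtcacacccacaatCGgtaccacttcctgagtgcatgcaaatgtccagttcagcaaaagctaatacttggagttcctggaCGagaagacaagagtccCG

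Hist1h1a (ENSMUSG00000049539.3, plus strand of chromosome 13, 23763666 to 23764406) encodes the linker histone H1.1. Its 31 coding rows, 130 to 438 bp from the start, were at 2.18%, with a range over libraries of 0.517% to 6.67%. Beyond the gene end, 10 rows 1127 to 1244 bp from the start, at chr13:23764793-23764910, were at 66.6%. The Wt libraries had 69.9%, 63.4% and 59.4% (females 1 to 3) and 59.1% (the library labelled Wt male), and the Tg libraries ran from 62.7% over a median of 68.8% to 73.2%. Most Tg libraries were above most Wt libraries, but the ranges overlapped. The stretch is shown on the plus strand because its 6 CpGs differ in level along it.
Hist1h1a downstream: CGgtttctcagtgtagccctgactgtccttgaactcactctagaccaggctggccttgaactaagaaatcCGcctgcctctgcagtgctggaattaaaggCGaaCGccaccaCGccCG
The first CpG, at 23764793, averaged 15.6%. The next, at 23764863, averaged 52.2% on its minus strand, and that at 23764897 averaged 88.3% on the plus and 88.5% on the minus strand. The last, measured on the minus strand only at 23764910, was at 51.6%. Level therefore varied widely within 118 bp.

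**Figure D3:**
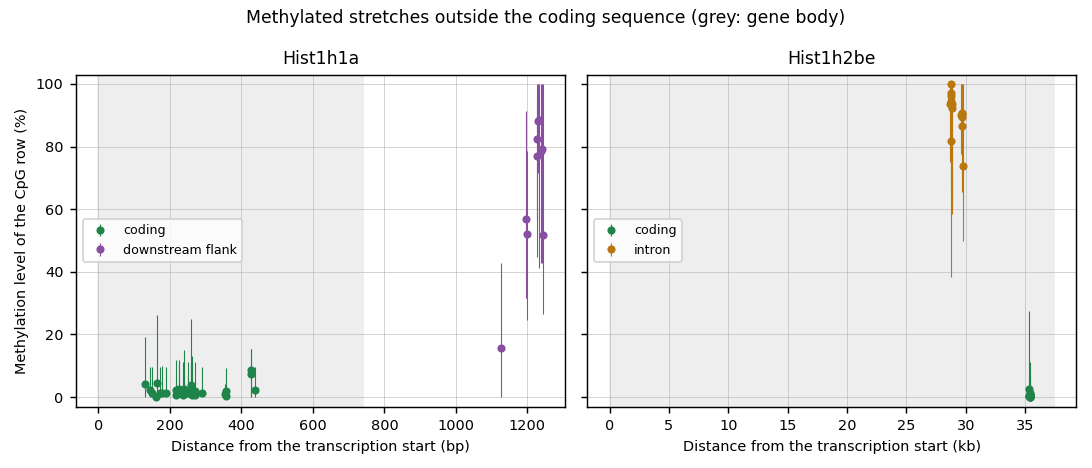
Methylation level (%) of each CpG row against its distance from the annotated transcription start, in bp for Hist1h1a and in kb for Hist1h2be, with the gene body in grey, points for the mean and bars for the range over libraries. The means of the 31 coding rows of Hist1h1a lie at 0% to 8.79% and those of the 14 of Hist1h2be at 0% to 2.56%, and the downstream rows of Hist1h1a and intron rows of Hist1h2be lie between 15.6% and 100%.

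The reference genome marks repeats in lower case. All 10 downstream rows of Hist1h1a and 4 of the 14 intron rows of Hist1h2be lay in such sequence. Of the 1198 member rows 23 did, at a level of 45.0%, against 5.10% for the 1175 others. The 9 remaining repeat rows, in other genes, were at 0% to 2.38%, so the 45.0% came from the Hist1h1a and Hist1h2be rows. None of the 51 rows of the germline pair lay in marked repeat sequence.

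The remaining downstream rows were few. The 4 rows behind Hist1h2bk, an H2B gene, were at 9.19% with a range of 0% to 17.4%, and the 2 rows behind Hist4h4, an H4 gene that lies alone on chromosome 6, were at 49.9% with a range of 10% to 85.7% at a median coverage of 18 reads. Such wide ranges leave the level of both poorly determined. In the 60 exon rows of Hist4h4 the level was 0.376%.

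In some stretches of somatic genes a single library stood apart. In each of the 47 stretches the highest or lowest library of a genotype was compared with the next. The gap was large for the range (Dixon's 95% value) in 18 of 82 groups. That value is passed in about 1 in 20 groups of normally distributed values. Most of these levels lie near the floor of 0%, so no share expected by chance can be given here. All 18 were high values, and 5 were in Tg female 2. The following 3, chosen after their values were seen, show the size. The 13 rows of Hist1h2bf (ENSMUSG00000069268.4), which count for its neighbour Hist1h2ad too, were at 12.3% in Wt female 2, at 1.51% and 1.61% in Wt females 1 and 3, and at 0.635% in the library labelled Wt male. The Tg libraries ran from 0.481% over a median of 2.28% to 8.03%. All 13 rows had at least 39 reads in each library. In the 13 coding rows of Hist1h2bm, an H2B gene, Tg female 2 was at 8.26% and the other Tg libraries at 0% to 0.774%. In the 16 upstream rows of Hist2h2aa2, an H2A gene, Tg female 4 was at 11.0% and the other Tg libraries at 0.0735% to 3.48%.

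The members were compared with the rest of the series as a description. Over the 462 member rows with at least 10 reads in all 12 libraries, the level was 1.72% ± 0.253 (SD, n = 12), and over the 970775 autosomal rows of the same kind it was 5.52% ± 0.255 (SD, n = 12). The members were lower in 12 of 12 libraries. Gene starts are low in general. The autosomal rows within 1 kb of a protein-coding start were at 1.29% over rows in all 12 libraries, below the 1.72% of the members. Over rows in at least 6 libraries they were at 1.96%, against 5.88% for the members and 2.55% for the members without the germline pair. Inside the span of the Hist1 cluster, 1169 rows in at least 6 libraries belonged to no member window. The 916 of them away from any gene start were at 22.3%, and the 253 near the start of another gene were at 4.22%. On the same footing the Hist1 members were at 8.29%, or 3.35% without the germline pair. Only without the pair were they thus below both kinds of neighbouring row, with no test of the difference.

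Rows differed in how many libraries covered them with at least 10 reads. In the 462 rows covered in all libraries, only 4 averaged over 50%, and none of these belonged to the germline pair, whose rows were each missed by at least 1 library. Of the member rows just inside the rule, the 78 covered in 6 libraries averaged 12.8%, and of those just outside it, the 117 covered in 5 libraries averaged 4.57%, with a median of 0% in both.

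Histone genes are alike, and a read that fits several places cannot be assigned. Genomic MspI fragments of 40 to 220 bp were therefore listed from the reference, and an end was called unique if its 50 bases, with every C written as T, occurred once among all MspI ends of the genome. Of 48 fragments with a CpG and 2 unique ends in the member windows, 46 (95.8%) held member rows. Of 17 with 1 unique end 15 (88.2%) did, and of 62 with no unique end 15 (24.2%) did. Of the 21 genes without member rows, 6 had no such fragment with a CpG, and 13 had only fragments without 2 unique ends. The other 2 (Hist1h2ab and Hist1h3b) had a fragment with both ends unique. Of the 46 genes with member rows, 28 had a fragment with a CpG and both ends unique, so the others were covered without one. Why a gene had no member row was not tested.

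Whether Tg and Wt animals differed at the histone genes was asked per row, per gene window and as a mean. A pair of models were used. The binomial model counts every read as a draw of its own, with labelled sex as a covariate. The only library labelled male in Wt went against its label, so the sex term rests on a doubtful label there. Without that library all males are Tg. The overdispersion model adds a spread among animals of 1 genotype where their values vary by more than read sampling. Whether a difference exceeds the spread between animals was judged by it. A row was called when its Benjamini-Hochberg adjusted p-value over all 980547 rows was under 0.1 and its read-weighted levels differed by at least 10 points.

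Over the 462 rows Wt animals had a mean level of 1.69% ± 0.193 (SD, n = 4) and Tg animals one of 1.73% ± 0.289 (SD, n = 8). Tg exceeded Wt by 0.0462 points, which is smaller than the SD of either group. It was 0.116 points without the library labelled Wt male and 0.188 points in the females.

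The binomial model called 1 of the 462 member rows (0.216%), against 1.72% of all rows. The overdispersion model called 0 of them, against 0% of all rows. Without a minimum difference, 76 member rows passed the binomial model, which is 16.5% both of the members and of all rows. At an unadjusted p-value under 0.05 of the overdispersion model there were 59 member rows (12.8%), against 10.9% of all rows. Wt and Tg libraries did not overlap at 0 of the 462 member rows, against 0.0709% of all rows. The shares of the members were below or close to the background, so the members did not stand out in genotype differences.

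The called row was the plus-strand cytosine at 23764893 in the downstream stretch of Hist1h1a shown above. Its level was 94.7%, 86.7% and 79.7% in Wt females 1 to 3 and 83.9% in the library labelled Wt male, and it ran from 57.1% over a median of 71.1% to 84.1% in the Tg libraries. The Tg libraries were lower on the whole, with overlap, by 12.1 points read-weighted. The adjusted p-value was 0.0160 in the binomial model and 0.451 in the overdispersion model, whose unadjusted p-value was 0.0240. The call was lost without Wt female 1, without Tg female 1, and with both strands of a CpG summed. The minus-strand cytosine of the same CpG, at 23764894, was covered in 3 Wt and 7 Tg libraries and differed in the other direction. Its Wt values were 92.3% (female 1), 75.5% (female 3) and 44.8% (the library labelled Wt male), and it was at 76.5% to 100% with a median of 86.4% in the Tg libraries. Read-weighted, it was higher in Tg (adjusted p = 0.0104 in the binomial model and 0.543 in the overdispersion model). The binomial model thus called both strands of 1 CpG, in opposite directions. Without the library labelled Wt male, the minus-strand difference was 5.85 points and was not called (adjusted p = 1.0 in the binomial model), and the plus-strand call remained at −12.6 points.

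Only 1 other member row covered in all libraries differed by 10 points or more, and it was not called. At 22036708, downstream of Hist1h2bk, the Wt libraries ran from 0% to 25% and the Tg libraries from 0% to 60%, with a read-weighted difference of 10.9 points (adjusted p = 0.144 in the binomial and 0.753 in the overdispersion model).

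Because the germline pair had no row in all 12 libraries, its genotype comparison came from rows with 10 reads in at least 3 Wt and 6 Tg libraries. Of the 921 member rows in that set, the binomial model called 11 (1.19%), against 4.11% of all rows in it, and the overdispersion model called 0, against 0%. Of the 11 rows, 6 lay in the germline pair (3 higher and 3 lower in Tg), 3 downstream of Hist1h1a, 1 in the intron of Hist1h2be and 1 upstream of Hist2h3c2 and Hist2h2aa2. Among them the row at 23764898 downstream of Hist1h1a had Wt values of 85.2% (female 1), 84.0% (female 3) and 41.4% (the library labelled Wt male), and was at 85.7% to 100% in 8 Tg libraries, which did not overlap (adjusted p = 0.505 in the overdispersion model). This was 1 of the 921 rows, against 0.219% of all rows in the set. Its read-weighted difference was 21.3 points, and 9.56 points without the library labelled Wt male, where it was not called (adjusted p = 0.164 in the binomial model). Without that library the binomial model called 8 of the 921 rows, 5 of them among the 11, against 3.43% of all rows, and the overdispersion model called 0. At an unadjusted p-value under 0.05 of the overdispersion model there were 100 of the 921 rows (10.9%), against 9.5% of all rows. Over the 33 rows of the pair in that set the read-weighted level was 93.0% in Wt and 91.6% in Tg, while the means over libraries of the same rows were 91.0% in Wt and 92.8% in Tg, so the sign depended on the weighting. The adjusted p-value was 1.0 in the overdispersion model.

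**Figure D4:**
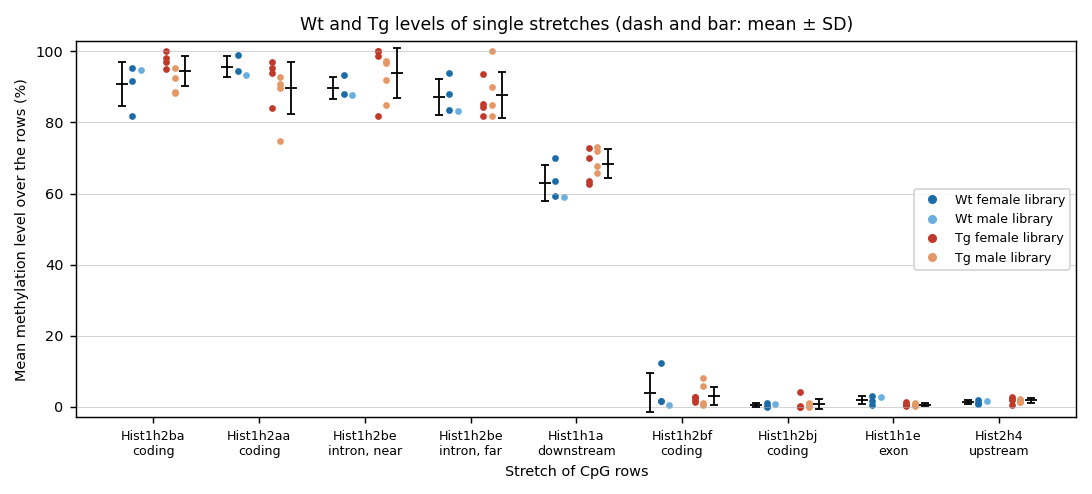
Mean methylation level (%) of 9 stretches of CpG rows in each library, Wt on the left and Tg on the right of each stretch, coloured by labelled group, with mean ± SD beside the points. For the intron of Hist1h2be, near and far mean nearer to and farther from the annotated start. Wt and Tg points overlap in every stretch shown.

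Per gene, the reads of all rows in a window were summed. In all, 33 member genes had at least 3 rows covered in all libraries, in 27 distinct sets of rows. The overdispersion model called 0 of the 33 at an adjusted p-value under 0.1, against 0.0138% of the 14453 genes tested (2 genes). Limma on logit levels called 0 of the 33, against 0% of all genes, and 3 (9.09%) had an unadjusted p-value under 0.05 in it, against 5.29% of all genes. The binomial model called 16 of the 33 (48.5%), against 52.8% of all genes. At an unadjusted p-value under 0.05 of the overdispersion model there were 2 member genes, against 6.15% of all genes. Tg was higher in 17 and lower in 16 of the 33. With the wider set of rows 43 member genes were tested and 0 called, against 0%, and 5 of them (11.6%) had an unadjusted p-value under 0.05, against 4.28% of all genes. These were Hist1h1e, Hist1h4i and Hist1h4j, lower in Tg, and Hist2h4 and Hist1h3f, higher in Tg, with differences from −1.71 points in Hist1h4j to 0.542 points in Hist2h4, and none passed the adjustment.

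The member genes with the smallest p-values all missed the threshold. In Hist2h4 (ENSMUSG00000091405.2), an H4 gene, the 13 rows of Wt animals averaged 1.87% ± 0.806 (SD, n = 4), and those of Tg animals 2.80% ± 0.852 (SD, n = 8) (read-weighted difference 1.21 points, adjusted p = 0.738). Without its minus-strand row at 96263484 these means were 0.455% and 0.889%, and over all 51 rows of the gene they were 1.41% and 1.47%. In Hist1h1e (ENSMUSG00000051627.3), which encodes the linker histone H1.4, it was 2.10% ± 1.83 in Wt and 0.542% ± 0.642 in Tg over 28 rows (read-weighted difference −0.774 points, adjusted p = 0.760). For Hist1h1a the window differed by −2.89 points read-weighted, although the means over rows were 30.8% in Wt and 30.7% in Tg (adjusted p = 0.832). Hist1h4j, an H4 gene, and the neighbours Hist2h3b (H3) and Hist2h2bb (H2B), which share their rows, followed with differences of −0.770 and 0.579 points (adjusted p = 0.866 and 0.869).

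Hist2h4 also held the largest difference between strands. Of 804 member CpGs, 394 had member rows on both strands, and the median absolute difference between the strands was 0.710 points. At a CpG of a CCGG site upstream of Hist2h4, the plus-strand row at 96263483 was at 0% to 15.4% and the minus-strand row at 96263484 at 7.07% to 42.4%, with the minus strand higher in 10 of 10 libraries that covered both. The 12 libraries of the minus-strand row included Wt values of 7.07% to 27.9% and Tg values of 11.0% to 42.4%, which overlap. This CpG is one of 2 that differed by 10 points or more between strands, and the cause was not tested. The other was that of Hist1h2ba at 23933931, where the minus strand was higher in 4 and the plus strand in 2 of the 7 libraries that covered both.

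Coverage was uneven along 1 fragment and between odd and even numbers, values chosen after they were seen. In the coding sequence of Hist1h1a, plus-strand rows from 23763882 to 23763935 had 1.90 to 2 times the median coverage of those from 23763796 to 23763854 in each of 8 libraries. Coverage was an even number in 70.3% of 12263 values at member rows, 78.7% of 461 in the germline pair and 72.2% of all values, whereas separate reads would give even and odd numbers about equally often. The binomial p-values count each of these reads as 1 draw, and the part of this in the calls was not tested.

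Other histone genes and the factors that act on histone messages were looked at in 2 lists. Of 14 replication-independent histone genes, 13 had rows. Their starts, within 1 kb, had a median level of 0.682% in 11 genes. By gene window 4 genes were at 10% or more. H1foo, the oocyte linker histone, was at 96.5% from 4 rows (range 85% to 100%), and H1fnt, a spermatid linker histone, was at 90.0% from 18 rows (82.3% to 95.8%), also at its start. The macroH2A genes H2afy and H2afy2 were at 17.3% and 11.7% over the window, but at 0.658% and 1.08% at their starts. H1foo and H1fnt were thus at levels near those of the germline pair of the clusters. Hils1, another spermatid linker histone of the list, had no row. Of the 11 that could be tested for genotype, the overdispersion model called 0, against 0.0138% of all 14453 genes tested.

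Of 14 genes for transcription and processing of histone messages, such as Npat, which drives histone transcription, and Slbp, which binds the stem-loop, all 14 had rows, and the starts of 13 had a median level of 0.922%. The start of Cstf2, a cleavage factor gene on chromosome X, was at 15.3% with a range of 0% to 29.2% over libraries of both sexes. By gene window Lsm10, Casp8ap2, Cpsf3 and Cstf2 were at 30.4%, 19.8%, 16.8% and 15.3%. The range over libraries was 0% to 62.0% for Lsm10, 0% to 100% for Casp8ap2 and 6.87% to 21.7% for Cpsf3. The levels of Lsm10 and Casp8ap2 are thus poorly determined. At their starts Lsm10, Casp8ap2 and Cpsf3 were at 4.27%, 0.647% and 0.922%. Of 13 tested for genotype, the overdispersion model called 0, against 0.0138% of all 14453 genes tested.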

How the data were processed

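RRBS libraries of 12 mouse brains were analysed, 1 per animal. Per the labels and the study's methods, the authors sequenced read pairs on an Illumina instrument, aligned them to mm10 with Bismark and read CpG calls with methylKit. Versions are not given in the sources used here. The deposited values are read counts per CpG cytosine, made by the authors: coverage, methylated C and converted T, with strands apart and at least 10 reads per row. Animals were not pooled, and 11 positions that appear repeatedly in a file were not used here.

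From these counts, levels were computed per row, gene windows were taken from GENCODE M21, and sequences were read from the RefSeq GRCm38 genome. A gene's level was the mean over its rows, then over libraries. The binomial model was a logistic regression on genotype and labelled sex with a likelihood-ratio test. The overdispersion model divided the deviance by a dispersion per row of at least 1 and used an F test. Both ran on the whole table with Benjamini-Hochberg adjustment, in Python 3.11.15 with NumPy 2.4.6 and SciPy 1.17.1, and were tested on simulated data. Limma 3.58.1 was an alternative, on logit levels with a pseudocount of 1. Other alternatives varied the read minimum, covariate, rows, windows, strands and thresholds, and left out each animal. The fit over rows in at least 3 Wt and 6 Tg libraries without the library labelled Wt male was chosen after seeing the data. Replicate numbers follow the order of records and only name an animal. The paper gives common housing conditions, but not which animals were caged together or which of these libraries were prepared together. The p-values of limma, and of the overdispersion model where its dispersion was above 1, measure the spread between these libraries only. At rows where the dispersion stood at its minimum of 1, the overdispersion model measured read sampling alone. The median dispersion was 1.14 over the 462 member rows and 1 over the 921 of the wider set. The p-values of the binomial model measure read sampling and not the spread between libraries.

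A level of 0% from 10 reads allows up to 30% (3 counts), for counting error only and with every count a separate read. If both mates of a pair were counted where they overlap, which was not tested, fewer molecules stand behind a count and the limit is higher.

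The members and lists were chosen with earlier results of these data known. Named genes were Hist1h1t, Hist1h2aa and Hist1h2ba, member genes at 10% or more, the 5 with the smallest overdispersion p-value, called rows and those differing by at least 10 points, the 3 lowest genes with at least 10 rows, and list genes at 10% or more or called. Other genes named, the pairs of coding sequences, the strand, coverage and repeat counts and the digest were chosen after their values were seen. A marker is not reported here. The others without rows near the start were Rbfox3, Gfap, Aqp4, Cx3cr1, Aif1, Csf1r, Pecam1, Ptprc and Tex101.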

Additional observations from a re-analysis of the deposited data

Results flagged for a closer look

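In 37 groups of Wt or Tg libraries checked over 20 measures, a library stood apart from the others of its genotype in 7, of which 2 are the same rows. About 1 in 20 groups of normally distributed values would show such a gap, but many of these levels lie near the floor of 0%. No share expected by chance can thus be given. The stretches of Hist1h2bm and Hist2h2aa2 were taken up because a library stood apart in them. In the Hist1h2bf window Wt female 2 was at 12.3%, and the other 3 Wt libraries were at 0.635% to 1.61%. In the upstream stretch of Hist2h2aa2, Tg female 4 was at 11.0% (the other 7 Tg libraries at 0.0735% to 3.48%) and Wt female 2 at 1.67% (the other 3 Wt libraries at 0.116% to 0.164%). Tg female 2 was at 8.26% in the coding stretch of Hist1h2bm, with the other 7 Tg libraries at 0% to 0.774%, and at 4.24% in that of Hist1h2bj, with the others at 0% to 1.02%. In the rows shared by Hist2h3b and Hist2h2bb, Tg female 2 was at 2.34%, and the other 7 Tg libraries were at 0.463% to 1.15%.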

How the results depend on the processing

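There were 121 alternative values for 7 results. No paired analysis was possible because replicate numbers only name an animal. The count of member rows called by the binomial model was 1 of 462 as reported, against 16871 of all 980547 rows. With a difference of at least 5 points it was 4, against 36123 of all rows, and with at least 25 it was 0, against 760. With a read minimum of 20 it was 0 of 225, against 1781 of 375460. In the females it was 3, against 20842, and without the sex term 1, against 18983. Over rows in at least 3 Wt and 6 Tg libraries it was 11 of 921, against 67361 of 1640806. With strands summed it was 0 of 364, against 14691 of 695158. Without 1 library each the member count ranged from 0 to 2, against 13273 to 21999 of all rows. It was 0 without Wt female 1 or Tg female 1, and 2 without the library labelled Wt male, Tg male 1, Tg male 4 or Tg female 3. The overdispersion model called 0 member rows under each of its 19 alternatives, and 0 of all rows under each as well. The count of member gene windows called was 16 of 33 in the binomial model, against 7629 of all 14453 genes. It was 0 under each of the other 19, limma included, where 0 to 2 of all genes were called. The difference between member and autosomal rows, -3.80 points as reported, was -0.846 with a read minimum of 20, -12.9 over rows in at least 6 libraries and -3.32 read-weighted, and -3.85 to -3.75 without 1 library. The difference between germline-expressed and other genes, 89.9 points, was 89.3 to 90.8 without 1 library, and it could not be had over rows in all 12 libraries, because the germline pair has none. Tg minus Wt ranged from -0.0375 to 0.116 points without 1 library and was -0.0370 over rows in at least 6 libraries and -0.149 read-weighted, so its sign is not determined. Over rows in all 12 libraries 1 gene, Hist1h1a, was at 10% or more. The count was 4 over rows in at least 6 libraries, and 0 with a read minimum of 20 or within 1 kb of the start. The causes were not tested. Rows of the germline pair were read 18 to 24 times at the median, and depth was not tested as a cause of missing rows.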

Other observations

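Rows of the member windows with 10 reads in fewer than 6 libraries were not used above. In the Hist1h4h window 36 such rows averaged 0.592%, and in the Hist1h2be window 24 of 37 averaged over 50%.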
